A study of Mus musculus with 6 samples.

Results

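The 42 genes described here encode proteins of DNA replication and mitosis. They were taken by symbol from the 26123 genes of the deposited liver table, where all 42 were found, and all 42 passed the filter on low counts that left 16492 genes for testing. By role, 16 act in DNA replication or supply its nucleotides, 5 are regulators of entry into S phase, and 21 act in mitosis or its control. The libraries came from livers of ICR mice, an outbred stock, with 3 animals labelled control and 3 labelled crizotinib, a drug that blocks the receptor kinases MET, ALK and ROS1. The series states an adaptation of 7 days, a dose of 300 mg/kg and collection 1 week after dosing, with saline named for the comparison animals. As worded, that text names the normal group as the one dosed, which goes against the treatment labels of the libraries. Each library is therefore grouped by its own treatment label, and sex and age are unknown here. Whole liver was sequenced, so fewer cells of a type and less RNA per cell cannot be told apart.

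Before a cell copies its DNA, the helicase subunits Mcm2 to Mcm7 are loaded onto origins by Cdc6 and Cdt1, and Mcm10, Cdc45 and the GINS complex then help to switch the helicase on. Cyclins and cyclin-dependent kinases drive the cell from this step through chromosome condensation, spindle assembly and division. Adult hepatocytes rarely divide and are often polyploid, and they re-enter the cycle after tissue loss or injury. Many genes of replication are targets of E2F factors, while many mitotic genes are repressed in resting cells by the DREAM complex at a promoter element called the CHR.

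Every library held between 51123361 and 67947970 counts, and hepatocyte markers were abundant in all 6, with a summed level of 65093 to 99349 CPM over 10 genes. CPM here are counts per 1e6 counts of a library, after TMM scaling (trimmed mean of M values), given for each library in the order control replicates 1, 2 and 3 and crizotinib replicates 1, 2 and 3. Control replicate 1 stood apart, with 44.5% of its counts from mitochondrially encoded genes against 5.53% to 17.6% in the other libraries. The libraries of a group came from different mice, and no batch of extraction or sequencing is named in the labels.

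Most of the 42 genes had lower levels in crizotinib livers, but only Mcm10 passed the test. The fitted fold change was below 0 for 40 of the 42 genes, beside 50.0% of all genes tested, and the median log2 fold change was -1.15. By role the median was -1.46 over the 21 mitosis genes, -0.72 over the 16 replication genes and -0.15 over the 5 S-phase entry genes, beside -2.66e-05 over all genes tested. At an adjusted p under 0.05 (quasi-likelihood test of edgeR, adjusted after Benjamini and Hochberg), 1 of the 42 was lower and 0 were higher, while 0.340% of all genes were called in either direction and 0.249% were called lower. At an unadjusted p under 0.05, 13 of the 42 were lower and 0 were higher, against 7.25% and 8.06% of all genes. The groups did not overlap for 13 of the 42 genes (31.0%), all lower in crizotinib, against 10.3% of all genes. DESeq2 called 5 of the 42 lower, namely Mcm10, Mcm5, Birc5, Top2a and Aurkb, where it called 3.61% of all genes lower.

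**Figure D1:**
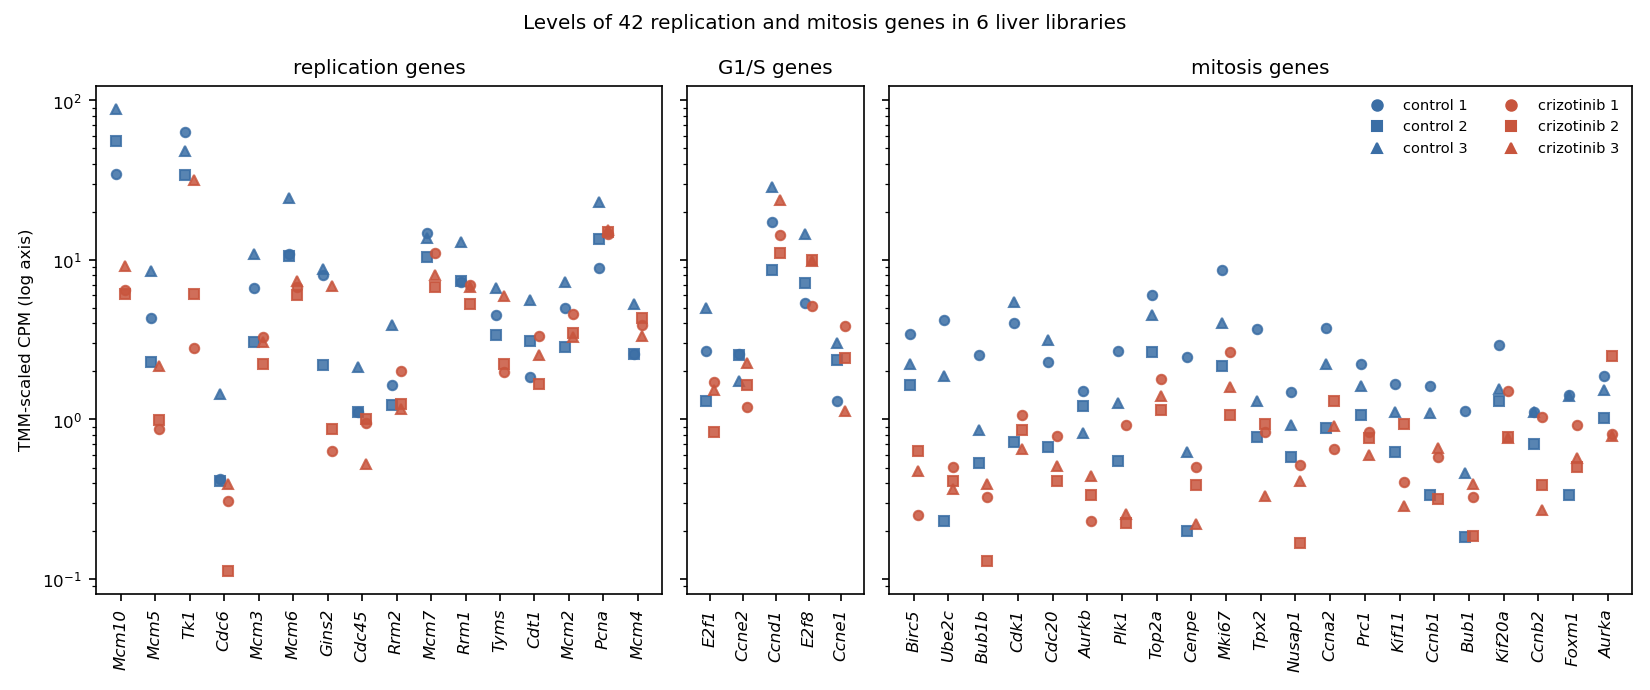
Each point is 1 library, with its TMM-scaled CPM on a log axis, for the 42 genes ordered within each role by fold change; blue marks the 3 control and red the 3 crizotinib libraries, and the marker shape gives the replicate. Mcm10 stands between 34.4 and 88.3 CPM in controls and between 6.11 and 9.14 CPM in crizotinib livers, while control replicate 2 lies among the crizotinib points for many mitosis genes.

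**Figure D2:**
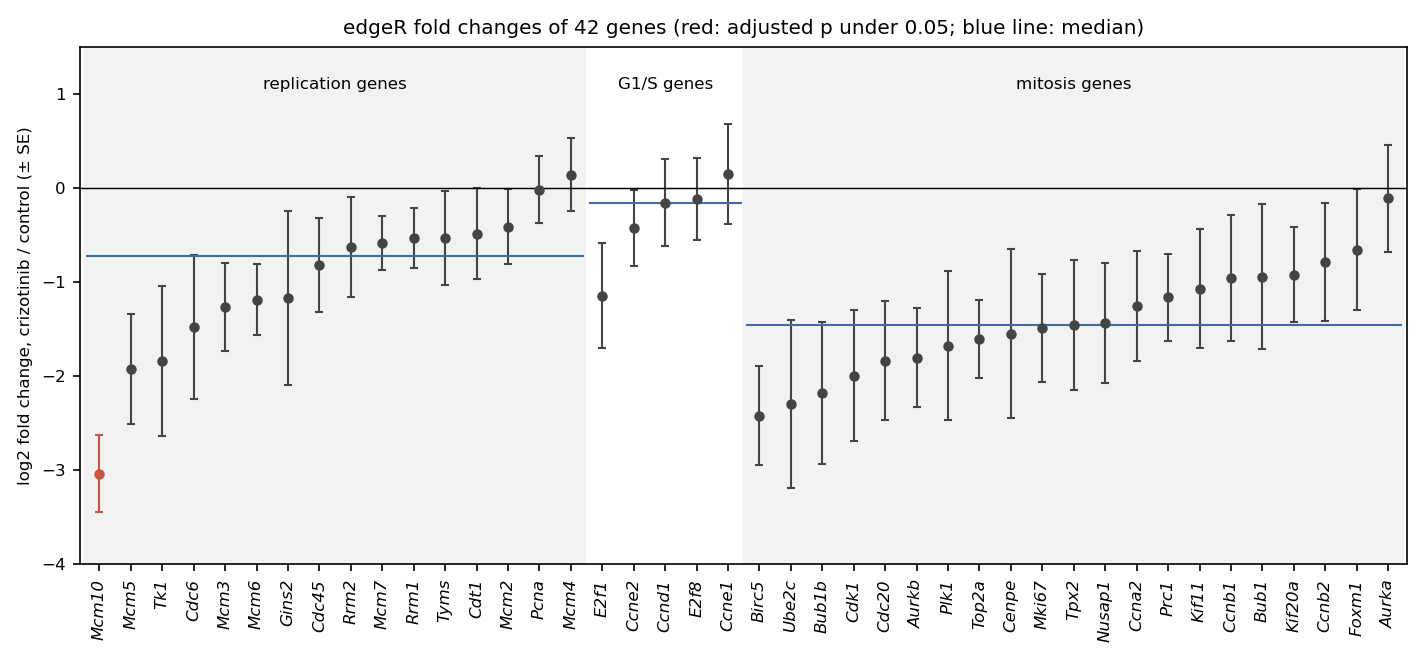
Points are edgeR log2 fold changes of crizotinib against control with bars of 1 SE, by role, with each role's median as a blue line. The medians lie at -0.72, -0.15 and -1.46, and Mcm10, drawn in red, is the only gene of the 42 with an adjusted p under 0.05.

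The RefSeq promoter table on GRCm38.p6 held 33 of the 42 genes. Its 250 bases before the transcript start were searched on both strands for E2F sites (TTTCCCGC, TTTCGCGC, TTTGCCGC or TTTGGCGC), for the CHR (TTTGAA) and for CCAAT boxes (CCAAT). An E2F site was found for 4 of 14 replication genes, among them Mcm5, Mcm6 and Mcm7, and for 1 of 16 mitosis genes, beside 2.16% of 27025 genes in the whole table. A CHR was found for 8 of 16 mitosis genes and 2 of 14 replication genes, beside 18.3% of all genes. A CCAAT box was found for 14 of 16 mitosis genes and 10 of 14 replication genes, beside 37.5% of all genes. These are matches of letters and not sites of binding. Of the genes with an entry, the replication and mitosis genes with the smallest p are shown, 2 of each, 5′ to 3′ on the gene's strand and ending at the base before the start, with the matches in capitals.
Mcm10 (chr2:5012792-5013041, minus strand): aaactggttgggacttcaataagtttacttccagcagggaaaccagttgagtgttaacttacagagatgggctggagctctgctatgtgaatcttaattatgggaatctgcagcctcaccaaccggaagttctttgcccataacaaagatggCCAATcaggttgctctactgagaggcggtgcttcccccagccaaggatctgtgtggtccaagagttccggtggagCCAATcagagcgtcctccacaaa
Mcm5 (chr8:75109259-75109508, plus strand): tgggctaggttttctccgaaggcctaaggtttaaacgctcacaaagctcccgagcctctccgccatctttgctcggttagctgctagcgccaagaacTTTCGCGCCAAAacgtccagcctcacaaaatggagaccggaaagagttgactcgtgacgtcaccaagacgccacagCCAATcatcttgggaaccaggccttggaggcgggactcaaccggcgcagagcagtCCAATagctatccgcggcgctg
Birc5 (chr11:117848987-117849236, plus strand): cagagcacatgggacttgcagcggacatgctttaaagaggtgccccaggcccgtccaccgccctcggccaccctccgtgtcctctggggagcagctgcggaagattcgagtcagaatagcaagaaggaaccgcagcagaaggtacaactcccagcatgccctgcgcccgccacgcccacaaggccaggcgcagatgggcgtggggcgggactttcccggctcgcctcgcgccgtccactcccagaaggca
Top2a (chr11:99024190-99024439, minus strand): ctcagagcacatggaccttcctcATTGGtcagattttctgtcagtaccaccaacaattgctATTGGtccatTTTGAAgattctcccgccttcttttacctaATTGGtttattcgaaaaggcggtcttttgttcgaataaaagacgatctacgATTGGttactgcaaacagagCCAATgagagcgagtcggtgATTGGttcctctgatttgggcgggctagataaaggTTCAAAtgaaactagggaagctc
The window of Mcm10 holds 2 CCAAT boxes, 94 and 19 bases before the start, and none of the E2F letters searched. The window of Mcm5 holds 2 E2F matches on opposite strands that overlap each other, together with 2 CCAAT boxes. The window of Top2a holds 2 CHR matches and 6 CCAAT boxes, and that of Birc5 holds none of these letters.

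Mcm10, an initiation factor that binds the helicase and brings DNA polymerase alpha to the fork, was the only gene of the 42 that edgeR called lower. The gene (ENSMUSG00000026669, chromosome 2, 4989714 to 5012791, minus strand) had 34.4, 55.9 and 88.3 CPM in the controls and 6.52, 6.11 and 9.14 CPM in the crizotinib livers. The lowest control was above the highest crizotinib library by a wide margin, and the 3 crizotinib libraries lay close together. The mean fell from 59.5 ± 27.1 to 7.26 ± 1.64 CPM (SD, n = 3 each), -3.04 ± 0.41 as log2 fold change (SE; adjusted p by edgeR = 0.0431), or 8.20-fold lower. The adjusted p by DESeq2 was 7.40e-10. No other gene of the table overlaps Mcm10, and its counts ran from 328 to 5359 per library. The fold change stayed between -2.64 and -3.32 with any single library left out. Its edgeR call was lost without any one of the 3 controls or of crizotinib replicates 1 and 2, with adjusted p between 0.0857 and 0.196, and held without crizotinib replicate 3 (edgeR adjusted p = 0.0107). On log2(FPKM + 1) the limma adjusted p was 0.111.

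In the controls, the 6 helicase genes stood apart from Mcm10 in level. Per length, on the authors' FPKM scale, Mcm10 was at 2.67, 8.27 and 10.3 FPKM in the controls, where the median of Mcm2 to Mcm7 was 0.851, 0.868 and 2.25 FPKM. In the crizotinib livers Mcm10 was at 0.782, 0.699 and 1.30 FPKM beside a median of 0.905, 0.793 and 0.959 FPKM. Mcm10 was thus above every helicase gene in each control and within their range in each crizotinib liver. The ratio of Mcm10 to their median was 3.13, 9.52 and 4.56 in the controls and 0.864, 0.881 and 1.36 in the crizotinib livers. Among the 42 genes Mcm10 had the highest FPKM in control replicates 2 and 3, where the next were Tk1 at 7.43 and Pcna at 8.61 FPKM. By mean FPKM over libraries Mcm10 ranked 2 in controls and 8 in crizotinib livers. FPKM divide by the library total, so the values of control replicate 1 are lowered by its mitochondrial counts, while ratios within a library are not. No test was made of the difference between Mcm10 and the others, since Mcm10 was singled out with earlier results known.

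**Figure D3:**
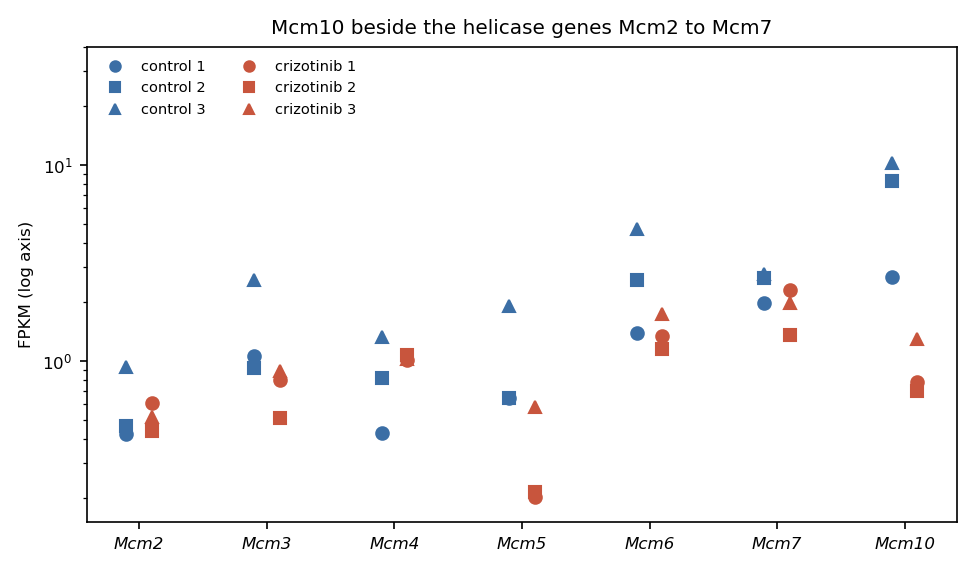
Each point is the deposited FPKM of 1 library on a log axis, for the helicase genes Mcm2 to Mcm7 and for Mcm10; blue marks control and red crizotinib libraries. Mcm10 lies at 2.67 to 10.3 FPKM in controls and at 0.699 to 1.30 FPKM in crizotinib livers, within the range of the helicase genes there.

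None of the helicase genes passed edgeR's test, and their fold changes ran from -1.92 to 0.14 on the log2 scale. Mcm5 (ENSMUSG00000005410, chromosome 8, 75109569 to 75128439) had 4.34, 2.29 and 8.58 CPM in controls and 0.868, 0.987 and 2.16 CPM in crizotinib livers. The groups did not overlap, but by a narrow margin between control replicate 2 and crizotinib replicate 3. The log2 fold change of Mcm5 was -1.92 ± 0.59 (SE; adjusted p by edgeR = 0.195, DESeq2 adjusted p = 0.0286). Mcm6 had 10.9, 10.6 and 24.5 CPM in controls and 6.75, 6.07 and 7.42 CPM in crizotinib livers, again without overlap, and -1.18 ± 0.37 as log2 fold change (SE; edgeR adjusted p = 0.206). Mcm3 had 6.67, 3.06 and 10.9 CPM in controls and 3.28, 2.22 and 3.08 CPM in crizotinib livers, where control replicate 2 lay within the crizotinib range. Its log2 fold change was -1.26 ± 0.47 (SE; edgeR adjusted p = 0.266).

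The other helicase genes differed less between the groups. Mcm7 had 14.7, 10.4 and 13.8 CPM in controls and 11.02, 6.82 and 8.01 CPM in crizotinib livers (log2 fold change -0.59 ± 0.29, SE), and part of it overlaps Cops6 and Ap4m1 on the opposite strand. Mcm2 had 4.98, 2.84 and 7.27 CPM in controls and 4.57, 3.48 and 3.30 CPM in crizotinib livers, a log2 fold change of -0.41 ± 0.40 (SE). Mcm4 had 2.59, 2.58 and 5.31 CPM in controls and 3.90, 4.34 and 3.35 CPM in crizotinib livers, all inside the control range, with a log2 fold change of 0.14 ± 0.38 (SE). For all 6, control replicate 3 or control replicate 1 was the highest library of the study.

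Apart from Mcm10, the genes of factors that load and activate the helicase did not pass the test. Cdc6, a helicase loader, had the lowest counts, with 0.421, 0.413 and 1.45 CPM in controls and 0.309, 0.112 and 0.396 CPM in crizotinib livers. Its lowest count of 6, in crizotinib replicate 2, has an exact 95% Poisson interval of 2.20 to 13.1 counts, which covers counting error only. Its partner Cdt1 had overlapping groups and a log2 fold change of -0.48 ± 0.48 (SE). Cdc45, a helicase activator, had 1.11, 1.12 and 2.14 CPM in controls and 0.946, 1.01 and 0.523 CPM in crizotinib livers (log2 fold change -0.82 ± 0.50, SE; edgeR adjusted p = 0.471). In Cdc6 and Cdc45 the groups did not overlap, though in Cdc6 control replicate 2 and crizotinib replicate 3 were nearly equal.

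Gins2, a subunit of the GINS complex, and Tk1, the cytosolic thymidine kinase, split the crizotinib livers. Gins2 had 8.02, 2.19 and 8.76 CPM in controls and 0.637, 0.875 and 6.90 CPM in crizotinib livers. Tk1 had 63.5, 34.0 and 48.0 CPM in controls and 2.82, 6.11 and 31.7 CPM in crizotinib livers, so that crizotinib replicate 3 lay just under the lowest control. Over all libraries the log2 fold change was -1.17 ± 0.93 for Gins2 and -1.84 ± 0.80 for Tk1 (SE; edgeR adjusted p = 0.582 and 0.330). Without crizotinib replicate 3 it was -3.08 for Gins2 and -3.46 for Tk1 (edgeR adjusted p = 0.0373 and 0.0108), where 4.72% of all genes were called lower. Both genes overlap others on the opposite strand, and the labels do not say if strand was used in counting. The whole of Tk1 lies inside Gm20708, a gene with 6342, 44 and 2901 counts in controls and 65, 568 and 3859 counts in crizotinib livers, and 169 bases of Tk1 overlap Afmid. In control replicate 2 Tk1 had 2221 counts beside the 44 of Gm20708, and how far the counts of these genes share reads is unknown here. In Gins2, 2758 bases overlap Gse1, which had 559 to 1765 counts per library. Parts of Cdc45, Ccnd1, Ccna2, Cdc20, Kif20a, Ube2c and Nusap1 also overlap other genes on the opposite strand.

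The remaining replication genes did not pass the test. Over all 16 replication genes, 4 were lower at an unadjusted p under 0.05, against 7.25% of all genes. The groups did not overlap for 7 of 16, all lower in crizotinib, against 10.3% of all genes. Pcna, the sliding clamp of the DNA polymerases, had 8.93, 13.5 and 23.1 CPM in controls and 14.6, 14.9 and 15.5 CPM in crizotinib livers, so the crizotinib livers were nearly alike and lay inside the control range. Its log2 fold change was -0.02 ± 0.35 (SE), and a pseudogene, Pcna-ps2, was counted separately at 112 to 291 counts per library. The subunits of ribonucleotide reductase, Rrm1 and Rrm2, had log2 fold changes of -0.53 ± 0.32 and -0.62 ± 0.53 (SE). Rrm1 had 7.26, 7.34 and 12.9 CPM in controls and 7.01, 5.31 and 6.74 CPM in crizotinib livers, without overlap but with adjacent values. Tyms, thymidylate synthase, had 1.99 and 2.22 CPM in crizotinib replicates 1 and 2 but 5.92 CPM in crizotinib replicate 3, inside the control range of 3.39 to 6.72 CPM.

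The 5 S-phase entry genes had overlapping groups throughout, and 0 passed edgeR's test at an adjusted or an unadjusted p under 0.05, as did 0 by DESeq2's adjusted p. E2f1, a transcription factor that switches on replication genes, had 2.70, 1.30 and 5.01 CPM in controls and 1.72, 0.838 and 1.52 CPM in crizotinib livers (log2 fold change -1.14 ± 0.56, SE; edgeR adjusted p = 0.378). E2f8, an atypical E2F repressor that takes part in hepatocyte polyploidy in mice, had 5.40, 7.17 and 14.5 CPM in controls and 5.17, 9.96 and 9.80 CPM in crizotinib livers. In E2f8, 3639 bases overlap Gm2788 on the opposite strand. Gm2788 had 932, 2222 and 1978 counts in controls and 268, 574 and 2058 in crizotinib livers, and how far the counts share reads is unknown here. Ccnd1, cyclin D1, had 17.2, 8.65 and 28.7 CPM in controls and 14.3, 11.02 and 23.7 CPM in crizotinib livers, and was among the more abundant of the 42 genes at 3.24 FPKM in controls. The cyclin E genes Ccne1 and Ccne2 had log2 fold changes of 0.15 ± 0.53 and -0.43 ± 0.40 (SE). In Ccne2, 5622 bases overlap Ints8 on the opposite strand, which had 547 to 959 counts per library. The median of these 5 genes was 0.34 without control replicate 3.

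The mitosis genes were rare in both groups. All 21 had a mean under 1 FPKM in controls and in crizotinib livers, with counts of 7 to 393 per library, and their median FPKM was 0.353 in controls and 0.135 in crizotinib livers. All 21 had a fitted fold change below 0, from -2.42 to -0.11, with 0 calls by edgeR and 3 by DESeq2. At an unadjusted p under 0.05, 9 of 21 were lower, and the groups did not overlap for 6 of 21, against 7.25% and 10.3% of all genes.

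Birc5, or survivin, a subunit of the chromosomal passenger complex, had the largest fitted difference among them. Birc5 (ENSMUSG00000017716, chromosome 11, 117849251 to 117855743) had 3.46, 1.64 and 2.22 CPM in controls and 0.251, 0.633 and 0.476 CPM in crizotinib livers, with every control above every crizotinib liver. Its log2 fold change was -2.42 ± 0.53 (SE; edgeR adjusted p = 0.117, DESeq2 adjusted p = 0.00105). Aurkb, the kinase of the same complex, had 1.51, 1.22 and 0.824 CPM in controls and 0.232, 0.335 and 0.444 CPM in crizotinib livers, also without overlap, and -1.80 ± 0.53 as log2 fold change (SE; adjusted p by edgeR = 0.186, DESeq2 adjusted p = 0.0377). Aurka, the spindle pole kinase, was the mitosis gene with the smallest difference. It had 1.86, 1.02 and 1.53 CPM in controls and 0.811, 2.50 and 0.793 CPM in crizotinib livers, with the highest value of all in crizotinib replicate 2.

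Top2a, the topoisomerase that untangles sister chromosomes, had 6.02, 2.66 and 4.51 CPM in controls and 1.79, 1.15 and 1.396 CPM in crizotinib livers. The groups were separate, and the log2 fold change was -1.60 ± 0.41 (SE; edgeR adjusted p = 0.153, DESeq2 adjusted p = 0.0131). Mki67, the Ki-67 antigen used to mark dividing cells, had 8.70, 2.17 and 4.04 CPM in controls and 2.64, 1.06 and 1.60 CPM in crizotinib livers. Here control replicate 2 lay below crizotinib replicate 1, and the log2 fold change was -1.49 ± 0.58 (SE; edgeR adjusted p = 0.282). Prc1 and Nusap1, which bundle spindle microtubules, had separate groups and log2 fold changes of -1.16 ± 0.46 and -1.43 ± 0.64 (SE). The span of Prc1 lies wholly inside that of Rccd1 on the opposite strand. Rccd1 had 218 to 258 counts in controls and 255 to 339 in crizotinib livers, and how far the counts share reads is unknown here.

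The kinase that starts mitosis, Cdk1, had 4.03, 0.719 and 5.49 CPM in controls and 1.06, 0.857 and 0.650 CPM in crizotinib livers. Control replicate 2 lay among the crizotinib livers, and the log2 fold change was -1.99 ± 0.69 (SE; edgeR adjusted p = 0.236). Its cyclins Ccna2, Ccnb1 and Ccnb2 had log2 fold changes of -1.26 ± 0.59, -0.96 ± 0.67 and -0.78 ± 0.63 (SE). Foxm1, the transcription factor of many mitotic genes, had 1.42, 0.336 and 1.40 CPM in controls and 0.926, 0.503 and 0.571 CPM in crizotinib livers, with overlap and a log2 fold change of -0.65 ± 0.64 (SE). Plk1, a kinase of mitotic entry and exit, had 2.68, 0.550 and 1.27 CPM in controls and 0.926, 0.223 and 0.254 CPM in crizotinib livers.

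Genes of the spindle checkpoint and of the anaphase-promoting complex spread widely among the controls. Bub1b, a checkpoint gene, had 2.52, 0.535 and 0.857 CPM in controls and 0.328, 0.130 and 0.396 CPM in crizotinib livers, without overlap (log2 fold change -2.18 ± 0.76, SE, with edgeR adjusted p = 0.235). Bub1, its relative, had 1.13, 0.183 and 0.461 CPM in controls and 0.328, 0.186 and 0.396 CPM in crizotinib livers. Cdc20, the activator of the complex, had 2.28, 0.673 and 3.15 CPM in controls and 0.791, 0.410 and 0.508 CPM in crizotinib livers. Ube2c, its ubiquitin-conjugating enzyme, spread most in the controls, with 4.21, 0.229 and 1.86 CPM, while the crizotinib livers had 0.502, 0.410 and 0.365 CPM. In each of Bub1, Cdc20 and Ube2c, control replicate 2 was below at least 1 crizotinib liver.

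The motor and spindle genes Kif11, Kif20a, Cenpe and Tpx2 had log2 fold changes between -1.55 and -0.92 with overlapping groups. Cenpe, a kinetochore motor, rested most on 1 library, with 2.46 CPM in control replicate 1 beside 0.199 and 0.626 CPM in control replicates 2 and 3 and 0.222 to 0.502 CPM in crizotinib livers. Its fitted fold change was 0.09 with control replicate 1 and crizotinib replicate 3 both left out.

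The controls differed among themselves in which group of genes was high. Control replicate 1 was the highest control for 18 of 21 mitosis genes, control replicate 3 was the highest for 14 of 16 replication genes, and control replicate 2 was the lowest control for 20 of 21 mitosis genes and 11 of 16 replication genes. The highest control exceeded the lowest by a median of 4.21-fold over the mitosis genes and 2.56-fold over the replication genes, and the same ratio among crizotinib livers was 2.13 and 1.68. For 15 of 21 mitosis genes and 9 of 16 replication genes, control replicate 2 lay below the highest crizotinib liver. The median fold change of the mitosis genes was -0.82 without control replicate 1 and -1.81 without control replicate 2. Control replicate 1 was also the library with the highest mitochondrial share, and the part of that share in these levels was not tested.

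Further genes of the same processes, from lists of pathway membership, gave 0 calls by edgeR over all genes. Of 46 tested of 47 further replication genes, 39 were fitted below 0 and the median was -0.47, and 7 were lower and 0 higher at an unadjusted p under 0.05, against 7.25% and 8.06% of all genes. The groups did not overlap for 9 lower genes and 0 higher genes, against 10.3% and 10.7% of all genes, and DESeq2 called 0. Pole, the catalytic subunit of DNA polymerase epsilon, had 4.21, 1.51 and 4.07 CPM in controls and 0.425, 0.819 and 1.51 CPM in crizotinib livers (edgeR adjusted p = 0.215). Pola2, a subunit of polymerase alpha, the enzyme that Mcm10 brings to the fork, had 10.03, 6.68 and 7.50 CPM in controls and 4.55, 3.69 and 5.38 CPM in crizotinib livers (edgeR adjusted p = 0.253). In both genes every control was above every crizotinib liver, though for Pole control replicate 2 and crizotinib replicate 3 were nearly equal.

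Of 58 tested of 64 further mitosis genes, 54 were fitted below 0 and the median was -1.28. At an unadjusted p under 0.05, 18 were lower and 0 higher, against 7.25% and 8.06% of all genes. The groups did not overlap for 20 lower genes and 1 higher gene, against 10.3% and 10.7% of all genes, and DESeq2 called 7 lower, against 3.61%. Cenpa, the histone variant of centromeres, had 6.51, 3.13 and 7.15 CPM in controls and 1.20, 0.912 and 2.20 CPM in crizotinib livers (log2 fold change -1.96 ± 0.48, SE; edgeR adjusted p = 0.146). Cdca8, the borealin subunit of the complex that holds Birc5 and Aurkb, had 1.93, 1.01 and 2.73 CPM in controls and 0.579, 0.205 and 0.444 CPM in crizotinib livers (edgeR adjusted p = 0.161).

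Of the further S-phase entry genes, 13 of 24 were fitted below 0 and the median was -0.05. At an unadjusted p under 0.05, 1 of the 24 was lower and 1 higher, against 7.25% and 8.06% of all genes. DESeq2 called 1 lower, against 3.61%. The groups did not overlap for 1 lower and 4 higher genes, against 10.3% and 10.7% of all genes. Cdc25a, a phosphatase that activates cyclin-dependent kinases, had 3.32, 2.87 and 3.81 CPM in controls and 11.3, 11.7 and 3.997 CPM in crizotinib livers. Lin9, a subunit of the DREAM and MYB-MuvB complexes, had 2.86, 3.01 and 3.86 CPM in controls and 1.16, 1.34 and 1.68 CPM in crizotinib livers. The adjusted p by edgeR was 0.193 for Cdc25a and 0.184 for Lin9, and both had separate groups in opposite directions.

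Genes that restrain the cycle or answer to stress split in direction. Of 22 listed genes 0 passed edgeR's test over all genes. At an unadjusted p under 0.05, 9 were higher and 3 lower, against 8.06% and 7.25% of all genes. DESeq2 called 8 higher and 2 lower, where it called 3.12% and 3.61% of all genes. Cdkn1a, the p21 inhibitor of cyclin-dependent kinases, had 2.79, 6.70 and 4.61 CPM in controls and 96.7, 154.6 and 6.80 CPM in crizotinib livers. Gadd45g, a growth arrest gene, had 3.92, 8.59 and 8.52 CPM in controls and 170.3, 170.0 and 17.0 CPM in crizotinib livers. In both genes crizotinib replicates 1 and 2 were far above the controls, and crizotinib replicate 3 was much nearer to the highest control. The log2 fold changes were 4.19 ± 0.99 for Cdkn1a and 4.08 ± 0.84 for Gadd45g (SE; edgeR adjusted p = 0.142 and 0.106), and without crizotinib replicate 3 they were 4.73 and 4.59 (edgeR adjusted p = 0.00339 and 0.00326), where 4.11% of all genes were called higher. The lower genes included Wee1, the kinase that holds Cdk1 inactive, with 7.51, 17.2 and 15.6 CPM in controls and 2.05, 4.004 and 7.09 CPM in crizotinib livers, and Plk2, a polo-like kinase, with 12.7, 10.3 and 9.46 CPM in controls and 3.49, 2.61 and 4.54 CPM in crizotinib livers. From the control mean on the log2 scale, the mitosis genes had medians of -0.84, -1.21 and -1.35 in crizotinib replicates 1, 2 and 3. The further mitosis genes had -0.91, -0.95 and -0.88 in the same order, and the 16 replication genes -0.69, -0.97 and -0.57. How these levels relate to those of Cdkn1a and Gadd45g was not tested.

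**Figure D4:**
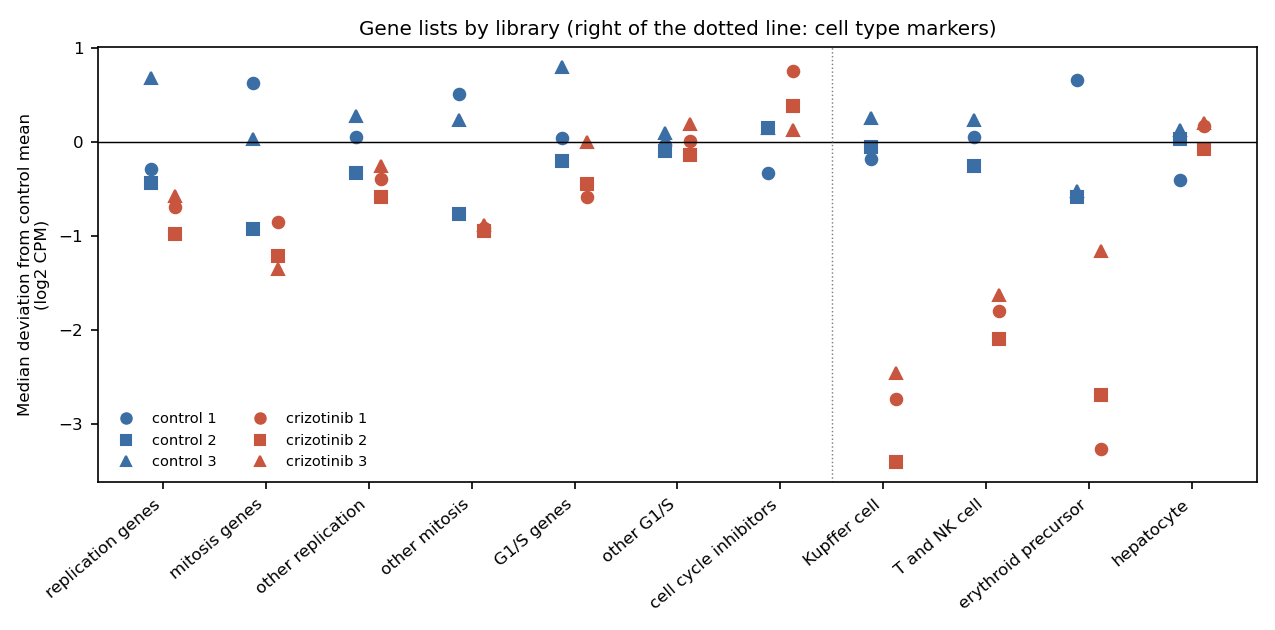
Each point is 1 library's median over a list of genes of log2 CPM minus the control mean of each gene; blue marks control and red crizotinib libraries, and lists of cell type markers stand to the right of the dotted line. The mitosis genes lie at 0.63, -0.92 and 0.03 in controls and at -0.84, -1.21 and -1.35 in crizotinib livers, and Kupffer cell markers lie between -3.41 and -2.45 in crizotinib livers.

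Markers of several other liver cell types were also lower in crizotinib livers. The 12 Kupffer cell markers had a summed level of 389.9 to 505.7 CPM in controls and 40.9 to 72.6 CPM in crizotinib livers. By edgeR 7 of 12 were called lower, against 0.249% of all genes. Of the 12, 11 were fitted below 0, and Marco had a log2 fold change of 0.09 with overlapping groups. The 14 tested of 15 T and NK cell markers summed to 11.9 to 19.4 CPM in controls and 2.48 to 3.74 CPM in crizotinib livers, where Cd3d had 0 counts in crizotinib replicates 2 and 3 and Cd3e had 0 in crizotinib replicate 2. The 9 tested of 12 listed erythroid markers summed to 271.8 to 1008 CPM in controls, highest in control replicate 1. In crizotinib livers they summed to 37.5 to 203.7 CPM, and most of their sum came from hemoglobin genes. Of the 9, 8 were fitted below 0, and Klf1 had a log2 fold change of 0.12 with overlapping groups. The sinusoidal endothelial markers, 9 in all, summed to 78.9 to 216.7 CPM in controls, again highest in control replicate 1, and to 50.8 to 79.7 CPM in crizotinib livers, where the groups overlap. Of the T and NK cell, erythroid, sinusoidal and stellate lists edgeR called 0, while 12, 6, 5 and 7 markers were lower at an unadjusted p under 0.05, against 7.25% of all genes. DESeq2 called 8, 4, 1 and 6 of them lower, against 3.61%. The 9 stellate cell markers summed to 185.6 to 338.8 CPM in controls and 92.5 to 140.8 CPM in crizotinib livers. B cell, neutrophil and cholangiocyte lists, with 10, 9 and 7 markers tested, gave 0 calls by edgeR and had medians above 0. At an unadjusted p under 0.05, 0, 4 and 1 of these markers were higher, against 8.06% of all genes. DESeq2 called 0, 1 and 1 of them higher, against 3.12%. The 10 hepatocyte markers split in direction, with 4 fitted below 0 and 6 above, and edgeR called 0. DESeq2 called 2 lower and 2 higher, against 3.61% and 3.12% of all genes. Their groups did not overlap for 3 lower and 1 higher marker, against 10.3% and 10.7% of all genes. The part of any of these cell types in the levels of the replication and mitosis genes was not tested.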

How the data were processed

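Liver RNA of 6 mice was measured by mRNA sequencing, 3 labelled control and 3 labelled crizotinib. Per the labels' protocols, RNA was prepared with a Qiagen RNeasy kit and libraries with a SMARTer kit. The counts deposited by the authors are whole numbers per gene, not normalized, and the FPKM deposited by the authors are fragments divided by gene length and by library size, per the file headers. The labels name no aligner, counter, annotation or strand setting. Of 26060 matched genes 23362 have the same ends as in GENCODE M21 on GRCm38, and of the 42 genes 39 do, so positions are given on that build.

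Counts were filtered by filterByExpr (minimum count 10, minimum total 15), scaled by TMM and tested on all 6 libraries with edgeR 4.0.16 (quasi-likelihood, R 4.3.3). Tests were two-sided, adjusted after Benjamini and Hochberg over 16492 genes and called at 0.05. The SE given with an edgeR fold change was derived from its test, as the size of the log2 fold change divided by the square root of the F statistic. The edgeR coefficient of biological variation was 0.470. The filter removed at most 0.0553% of a library's counts. Library deviations are log2(CPM + 0.1) minus the control mean. Other settings were DESeq2 1.42.0, its size factors in edgeR, no filter, limma 3.58.1 on log2(FPKM + 1), the replicate number as a block, mitochondrially encoded genes left out and each library left out. Leaving out control replicate 1 together with crizotinib replicate 3 was chosen after seeing the data. The fitting steps were tested on simulated counts.

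The 42 genes and all lists were chosen with earlier results of these data known. All 42 genes could be named, with library values for called genes, all Mcm genes and the genes with the smallest p in each role. From other lists, called genes or up to 3 with the smallest p could be named; further genes and library values were added after their values were seen. Promoters are from RefSeq (GRCm38.p6), and their orientation was checked against GENCODE transcripts, in which 31 of 35 entries had the bases after the start on the sense strand and 0 on the antisense strand.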

Additional observations from a re-analysis of the deposited data

How the results depend on the processing

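Of 546 refits of the 42 single fold changes, 510 kept their direction and side of the threshold and 22 changed direction. Only Mcm10 was called in the main fit, so for the other genes keeping the side means staying uncalled. Mcm10 lost its call in 7 refits. All genes called numbered 56 (15 higher, 41 lower), 1105 by DESeq2 (512 and 593), 0 with the replicate block and 0 to 1504 with 1 library left out (0 to 700 higher, 0 to 804 lower), highest without crizotinib replicate 3. With control replicate 1 and crizotinib replicate 3 both left out it was 1718 (796 and 922). Called replication genes of the 42 numbered 1, but 2 by DESeq2, 0 by limma on log2(FPKM + 1), 0 with the replicate block, 0 to 3 with 1 library left out and 2 (Mcm10 and Tk1) without both libraries. Called mitosis genes numbered 0, but 3 by DESeq2. Whether equal replicate numbers pair the samples is unknown here. Deviations of same-numbered libraries correlated across genes at -0.149, 0.196 and -0.0907, and control replicate 1 correlated best with crizotinib replicate 3. Being taken from the mean of each small group, these deviations depend on each other and cannot settle the pairing. Mcm10 had edgeR adjusted p = 0.0862 with the replicate block and limma adjusted p = 0.111 on log2(FPKM + 1), within 0.00576 to 0.196 over the other edgeR settings.

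On log2(FPKM + 1), where a pseudocount of 1 exceeds the level of most of these genes, the median was -0.19 for mitosis and -0.15 for replication genes, and 2 of 5 S-phase entry genes were below 0. With libraries left out the mitosis median was -1.81 to -0.70, the S-phase entry median -0.58 to 0.34, and the count of S-phase entry genes below 0 was 2 to 5. Further lists had 0 calls by edgeR; DESeq2 called 10 cell cycle inhibitors, 1 S-phase entry gene and 7 mitosis genes, and with 1 library left out edgeR called 0 to 9, 0 to 1 and 0 to 3, and 0 to 2 replication genes, and 9, 1, 3 and 3 without both libraries.

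On log2(FPKM + 1) the sign turned for Aurka (0.0020), Ccnd1 (0.10), E2f8 (0.043) and Pcna (0.21), and with the replicate block for Pcna (0.093). With libraries left out the range crossed 0 for Aurka (-0.87 to 0.35), Ccnd1 (-0.58 to 0.34), Ccne1 (-0.33 to 0.48), Cdt1 (-0.82 to 0.011), Cenpe (-2.08 to 0.093), E2f8 (-0.54 to 0.40), Mcm4 (-0.059 to 0.57), Pcna (-0.33 to 0.41) and Rrm2 (-0.95 to 0.024). The cause was not tested. Of the genes that crossed 0, only Aurka and Cenpe belong to the mitosis genes, which had 7 to 393 counts per library. Pcna had 403 to 1404 counts per library and Ccnd1 had 566 to 1741. With all 6 libraries the edgeR log2 fold change was -0.02 for Pcna, -0.11 for Aurka and -0.12 for E2f8. It was 0.14 for Mcm4, 0.15 for Ccne1 and -0.15 for Ccnd1, but -0.48 for Cdt1, -0.62 for Rrm2 and -1.55 for Cenpe.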
